A study of Mus musculus with 5 samples.

Results

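Runx3 peaks at CpG-rich one-direction promoters are the subject here. They are the bound regions of a mouse dendritic cell line that sit at the start of a gene, in sequence rich in CpG. No protein-coding transcript starts the other way in the promoter window, while non-coding ones could. A peak was a member when it lay on an autosome, when its summit fell between 1 kb upstream and 100 bp downstream of the transcription start site (TSS) of a protein-coding transcript, when all such TSSs were on the same strand, and when the 501 bp around the summit had a GC share of at least 0.55 and an observed/expected CpG ratio of at least 0.6. The ratio compares the number of CpG pairs with the number that the C and G content would give. Of 13014 peaks in the list, 12905 were autosomal and 1861 of those, or 14.4%, were members. The other autosomal peaks comprised 796 at one-direction promoters that missed the GC or CpG limit (CpG-poor below), 295 at bidirectional promoters and 9953 outside promoters. The rule used position and base composition and no measure of binding.

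ChIP-seq, the sequencing of DNA precipitated with a bound protein, was run on D1 cells, a dendritic cell line of spleen origin, with no treatment or genetic change named in the labels. The Runx3 IP used a polyclonal rabbit antibody to mouse Runx3 (3 libraries) and the control, NIS IP, rabbit non-immune serum (2 libraries), although the methods speak of 2 biological replicates. The authors called 1 peak list from 8689867 Runx3 and 4946605 NIS tags, without stating which libraries each side held, so there were no replicate values, and each interval and p-value below covers counting over the peaks of this list only. D1 is a single line, so nothing here measures variation between animals.

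RUNX proteins bind DNA as a heterodimer with CBFβ through the Runt domain and recognise a core of 6 bases, TGTGGT or TGCGGT, called the T form and the C form here. The C form holds a CpG and the T form does not. CpG-rich promoters belong mostly to genes that many cell types use; they tend to lack a TATA box, to stay unmethylated and to carry sites for Sp/KLF factors (the GC box), ETS factors, NRF1 and NFY. In dendritic cells Runx3 is known as a mediator of TGF-β responses.

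The sequences below show the words on which the results turn, in members chosen by fold enrichment, the ratio of Runx3 to control coverage. The C form is given in the 6 strongest members that carried it, with the core in capitals.
Ywhag: ggacaacccccTGCGGTcccgcccacac
Ccdc77: attttgtttccTGCGGTggcggactgat
Sh2b3: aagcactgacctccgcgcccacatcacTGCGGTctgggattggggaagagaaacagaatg
Eif3g: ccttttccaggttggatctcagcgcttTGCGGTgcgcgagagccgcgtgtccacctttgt
Nub1: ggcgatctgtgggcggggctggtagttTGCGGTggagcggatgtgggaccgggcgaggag
Arpc3: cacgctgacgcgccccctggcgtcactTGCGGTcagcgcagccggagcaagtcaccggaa
The stretches are chr5:136410492-136410519 on the plus strand (Ywhag), chr6:120314363-120314390 on the plus strand (Ccdc77), chr5:122286416-122286475 on the plus strand (Sh2b3), chr9:20703136-20703195 on the minus strand (Eif3g), chr5:24191413-24191472 on the minus strand (Nub1) and chr5:122841822-122841881 on the plus strand (Arpc3), in build mm9. Each is written on the strand where the core reads forward. The T form is given in 2 strong members that carried it, Srp68 (fold 19.8) and Alkbh3 (fold 18.8). It lay 67.5 bp (Srp68) and 52.5 bp (Alkbh3) from the summit. Brd7 (fold 19.8), which carried both forms and was stronger than Alkbh3, is not shown.
Srp68: tcttgggcctcTGTGGTgtgttggtgtg
Alkbh3: caacggaggccTGTGGTtggacgttgca
These are chr11:116135544-116135571 on the plus strand and chr2:93850926-93850953 on the minus strand. Some strong members had neither core and held the ETS word CGGAAG, in capitals in the 3 strongest of them.
Polr2j: gctgagaaatcCGGAAGtggtcgcgctt
Lrrk1: ggcgggtggcgCGGAAGcagggctgtgc
Isca1: cactgcgctagCGGAAGtgggatggctc
They are chr5:136592532-136592559, chr7:73533252-73533279 and chr13:59871300-59871327, all on the plus strand.

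Binding at the members was modest in height, and the peaks had a median width similar to that of the other classes. Their fold enrichment is the authors' ratio of scaled Runx3 coverage plus 1 over the local control background (NIS background) plus 1. It had a median of 7.41, with a middle range of 6.19 to 9.42 and extremes of 3.37 and 29.1. The summits were covered by a median of 18 Runx3 fragments (range 9 to 86), and the peaks were 178 bp wide at the median (range 119 to 817 bp). Median widths were 171 bp in CpG-poor promoter peaks, 176 bp in bidirectional promoter peaks and 172 bp in peaks outside promoters. A fold of 10 or more was reached by 401 members (21.5%, 95% interval 19.7 to 23.5%), against a background of 28.8% over all autosomal peaks. Peaks outside promoters reached it more often (30.8%, 3062 peaks), and the difference was −9.22 percentage points (95% interval −11.2 to −7.09, Fisher's exact test, adjusted p = 6.98e-16). The share in CpG-poor promoter peaks was 24.1% and that in bidirectional promoter peaks 19.3%, and neither difference from the members passed the test (−2.57 points, interval −6.15 to 0.86, exact adjusted p = 0.232; and 2.23 points, interval −2.99 to 6.75, adjusted p = 0.401). At a fold of 15 or more, the difference from CpG-poor promoter peaks was −2.95 points (exact adjusted p = 0.00238).

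The share of peaks with a raised NIS background did not differ detectably between the classes. An NIS background over 0.5 scaled fragments was seen in 23.2% of members, 22.4% of CpG-poor promoter peaks, 19.0% of bidirectional promoter peaks and 23.0% of peaks outside promoters. The differences from the members were 0.80 points (−2.75 to 4.19), 4.18 points (−1.03 to 8.69) and 0.13 points (−1.91 to 2.26), with adjusted p = 0.905, 0.348 and 0.905 by Fisher's exact test.

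The member with the strongest enrichment was the peak of Ywhag, which encodes a 14-3-3 adaptor protein. It spanned chr5:136410328-136410614 with its summit 20 bp upstream of the TSS, 86 Runx3 fragments, a NIS background of 0.714 and a fold of 29.1. Next came Polr2j, a subunit of RNA polymerase II, with 73 fragments and a fold of 24.8 at chr5:136592422-136592673, its summit in a UTR of an annotated transcript. Calm2, one of the calmodulin genes, had 53 fragments and a fold of 23.7 at chr17:87846370-87846693, outside annotated exons and introns. The kinase gene Lrrk1 had a fold of 23.0 and the iron-sulphur cluster assembly gene Isca1 a fold of 22.4. Below them were Mlec, which encodes an endoplasmic reticulum lectin (fold 22.2), the ubiquitin ligase gene Rnf216 (fold 21.5), E130309D02Rik (fold 21.5), Ccdc77 (fold 21.1) and Sh2b3, an adaptor that restrains cytokine receptor signalling (fold 21.0). Of these 10 strongest members, Ywhag, Ccdc77 and Sh2b3 held a RUNX core within 100 bp of the summit, and Polr2j, Lrrk1, Isca1, Mlec and Rnf216 held the ETS word with no core.

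Of those 10 genes, 6 lie on chromosome 5 beyond 110 Mb, where binding and background were both higher. That stretch held 134 members (7.20%), with a median fold of 8.66, against 7.33 in the 1727 members elsewhere, and a median NIS background of 0.595, against 0.322 elsewhere. Its members held a core in 32.1% of cases, against 41.0% elsewhere. On the whole of chromosome 5, 188 of 658 genes with a CpG-rich one-direction promoter had a member peak (28.6%), the highest share of any autosome, and the lowest was on chromosome 4 (88 of 664, 13.3%). The part of the higher background in the strong folds on chromosome 5 was not tested.

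The widest members were those of Srcrb4d (817 bp), Gabpb1 (697 bp), Cltc (691 bp), Sh2b3 (628 bp) and AW549877 (621 bp). Gabpb1 encodes the partner subunit of the ETS factor GABP, and Cltc encodes the clathrin heavy chain. Their folds ran from 12.0 for AW549877 to 21.0 for Sh2b3, so the widest members were also above the median in height. The highest NIS backgrounds were at Zfp12 (5.0), Actb (4.0), Phf12 (3.0), Gbas (3.0) and Kif3b (3.0). Zfp12 had 45 Runx3 fragments and a fold of 4.44, while Calu, with a peak of equal fragment count and a background of 1.0, had a fold of 13.3. The lowest folds were 3.37 at Gsg2 and Zfp62 and 3.38 at Tnrc18.

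Most members stood alone at their gene, and 78 genes had 2 or more. Calm2 had its strong peak 279 bp upstream and a weaker one (fold 5.52) 67 bp downstream of the nearest TSS. In Uspl1 (folds 15.5 and 7.56), Rbm39 (14.6 and 5.52) and Calu (13.3 and 5.96) a strong summit was likewise paired with a weak one. Rbm39 encodes a splicing regulator. Any second peak within 10 kb was found for 37.2% of members, against 53.6% of CpG-poor promoter peaks (difference −16.4 points, interval −20.5 to −12.3, exact adjusted p = 2.03e-14) and 44.4% of peaks outside promoters (−7.21 points, interval −9.59 to −4.79, adjusted p = 1.06e-08). Bidirectional promoter peaks had one in 38.3% of cases (difference −1.07 points, interval −7.13 to 4.74, exact adjusted p = 0.746). The difference from CpG-poor promoter peaks was −9.02 points when composition was taken over 500 bp on either side of the summit, and −9.13 points among peaks with a fold of 10 or more.

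Summits of the members sat close to the TSS. The median was 44 bp upstream, 67.1% lay within 100 bp and 82.4% within 200 bp on either side, while 85 members (4.57%) were over 500 bp upstream. In CpG-poor promoter peaks the median was 163 bp upstream and 53.5% lay within 200 bp, a difference of 28.9 points. The rule used the summit's position and the composition around it, so this is a description with no test. The difference was 14.1 points with the window limited to 500 bp upstream and 17.6 points with composition taken over 500 bp on either side. By annotation, 51.2% of member summits were outside protein-coding transcripts, 34.8% in a UTR, 4.25% in a coding exon and 9.78% in an intron.

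**Figure D1:**
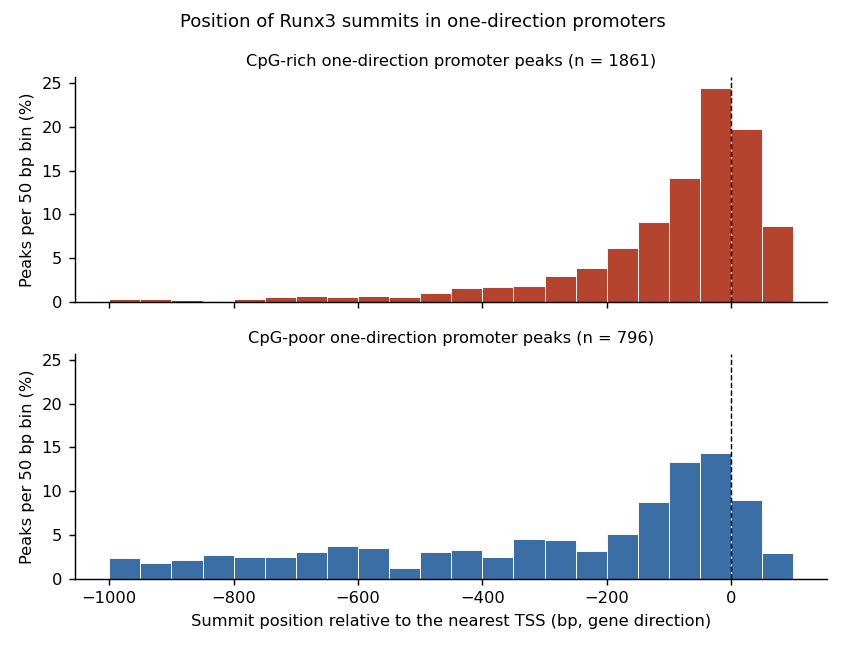
Share of peaks (%) per 50 bp bin against the summit's position relative to the nearest TSS, in gene direction, for the 1861 CpG-rich one-direction promoter peaks (upper) and the 796 CpG-poor ones (lower); the dashed line marks the TSS. The bin from 50 bp upstream to the TSS held 24.4% of the CpG-rich peaks, and their distribution is narrower than that of the CpG-poor peaks.

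At the GC limit, Usf1, Hat1 and Ccin were inside at 55.1% and Mtmr3, Herc4 and Larp4 outside at 54.9%. At the CpG limit, Srcrb4d (0.6003), Gatad2a (0.601) and Flot1 (0.602) were inside and Stard9 (0.5999), Slc2a1 (0.598) and Shoc2 (0.598) outside. Upstream, Tgif1, Cyp1b1 and AI314976 were inside at positions −997, −992 and −987 bp from the TSS, and Zfp516 and 4932431P20Rik outside at −1043 and −1044 bp. Downstream, Bard1, Zbtb22 and Got2 were inside at 100 bp, and Trappc5, D14Abb1e and Stip1 outside at 101, 102 and 102 bp. Folds on both sides overlapped, from 4.48 at Zfp516 to 17.6 at Stard9 outside and from 5.09 at Usf1 to 13.7 at Flot1 inside.

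A RUNX core was over-represented at the summits of the members. Either form, on either strand and within 100 bp of the summit, occurred in 751 members (40.4%, 95% interval 38.1 to 42.6%), against a background of 64.1% over all autosomal peaks. Windows of the same length centred 1 kb away held it in 16.4% of members upstream and 14.9% downstream. The core was at the summit alone in 628 members and upstream alone in 182 (exact McNemar test, adjusted p = 3.65e-58), and at the summit alone in 645 and downstream alone in 171 (adjusted p = 3.64e-65). The core letters in reverse order, which have the same base content, were found at 13.9% of summits (exact McNemar test, p = 5.11e-73), and their share did not differ detectably between summits and flanks (14.0% upstream, adjusted p = 1, and 14.7% downstream, adjusted p = 0.558). That even share pools 2 words that moved in opposite directions. TGGCGT was at 1.88% upstream and 8.81% at summits, and TGGTGT at 12.3% upstream and 5.32% at summits. The rule set the composition at the summit and not in the flanks, so the tests against flanks do not separate the core from composition. The reversed words at the summit, with the same letters in the same window, share that composition. Among peaks with a fold of 10 or more, the excess at the summit was 42.9 points over upstream and 48.4 points over downstream windows.

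In percentage points, the excess over flanks and over reversed words was larger for the C form. The rule set CpG content at the summit and the C form holds a CpG, so a preference between the forms was not tested. TGCGGT was found at 27.4% of member summits (509 peaks), against 1.77% of upstream and 2.90% of downstream windows. Its reversed word TGGCGT was also more frequent at summits, at 8.81%, against 1.88% upstream and 3.71% downstream, and the C form exceeded it by 18.5 points (exact McNemar test, adjusted p = 5.91e-49). TGTGGT was found at 15.3% of summits, against 14.8% of upstream windows and 12.4% of downstream windows. These flank shares are a description with no test, because the rule set composition at the summit and not in the flanks. In 4 of 11 other settings the difference of TGTGGT from downstream windows lay between −0.31 and 2.04 points. Its reversed word TGGTGT was scarcer at summits than in flanks (5.32%, against 12.3% upstream and 11.3% downstream), and the T form exceeded it at summits by 9.99 points (exact adjusted p = 1.14e-25). In the 25 bp on each side of the summit the T form was present in 4.57% and 3.71% of members, and its reversed word in 0.699% and 0.645%. Within 50 bp of the summit the T form exceeded the upstream window by 3.76 points, while within 150 bp the difference was −2.58 points. The T and C forms were separated after their shares had been seen.

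**Figure D2:**
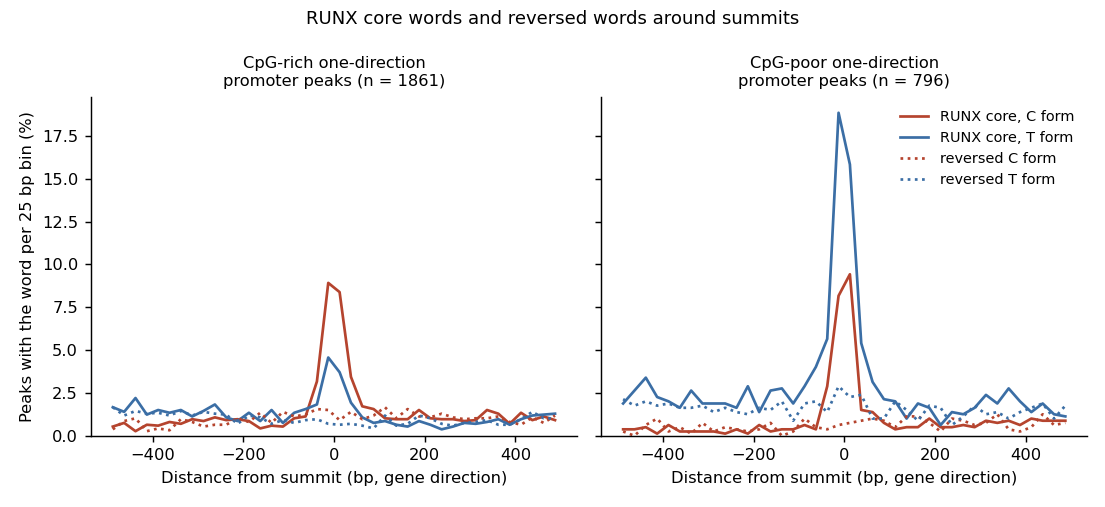
Share of peaks (%) with a word per 25 bp bin against the distance from the summit, in gene direction, for CpG-rich (left) and CpG-poor (right) one-direction promoter peaks; solid lines are the C form (TGCGGT) and T form (TGTGGT) of the RUNX core and dotted lines their reversed words TGGCGT and TGGTGT. In the CpG-rich peaks the C form reached 8.92% of peaks in the bin just upstream of the summit and the T form 4.57%, whereas in the CpG-poor peaks they reached 8.17% and 18.8% in that bin.

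Cores sat near the summit. Where one was present, the nearest was 18.5 bp away at the median, and 62.1% of these members had one within 25 bp. A single core was found in 651 members, 2 in 90 and 3 in 10, and 43 members held both forms. Of all 861 cores, 464 (53.9%) read in the direction of the gene. The members with 3 cores and the highest folds were those of Cenpw, a centromere protein gene (fold 15.5), Ndufs7, a subunit gene of respiratory complex I (15.5), Gmeb2 (12.5), the forkhead gene Foxn2 (12.0) and Alkbh7 (11.7).

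The classes are given side by side as a description, with no test against CpG-poor promoter peaks and peaks outside promoters, because the rule split these classes by the GC and CpG content at the summit and the C form holds a CpG. A core was present in 40.4% of members, 65.8% of CpG-poor promoter peaks and 69.2% of peaks outside promoters. The T form was at 15.3% in members, 46.5% in CpG-poor promoter peaks and 61.1% outside promoters, and its reversed word TGGTGT at 5.32%, 13.3% and 15.8%. The C form was at 27.4% in members, 24.2% in CpG-poor promoter peaks and 11.6% outside promoters, and its reversed word TGGCGT at 8.81%, 5.78% and 2.97%. Each reversed word therefore had the same order over the 3 classes as its core form. In the flanks of CpG-poor promoter peaks the core was at 17.96% upstream and 16.2% downstream. Bidirectional promoter peaks, which the rule did not split by composition, had a core in 38.6% of cases (difference 1.71 points, interval −4.37 to 7.54, Fisher's exact test, adjusted p = 0.609). Their share with the T form was 15.3% (difference 0.06 points, interval −4.75 to 4.09, exact adjusted p = 1) and with the C form 25.1% (difference 2.27 points, interval −3.34 to 7.32, exact adjusted p = 0.526). With peaks of fold 10 or more, the difference in core share was −14.7 points from CpG-poor promoter peaks and −17.0 points from peaks outside promoters.

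Stronger members held a core more often. It was present in 246 of 401 members with a fold of 10 or more (61.3%), against 505 of 1460 below (34.6%), a difference of 26.8 points (interval 21.3 to 32.0, Fisher's exact test, adjusted p = 3.10e-21). The C form was found in 46.9% of the stronger and 22.0% of the weaker members (exact adjusted p = 3.10e-21), the T form in 19.2% and 14.2% (adjusted p = 0.0186), and the ETS word in 40.1% and 32.9% (adjusted p = 0.0102). Still, 155 of the 401 stronger members had no core, and 90 had neither a core nor the ETS word; Calm2, the third in fold, and E130309D02Rik were among these. Members 501 to 1000 bp upstream of the TSS held a core in 54.1% of cases (interval 43.6 to 64.3%, n = 85), against 37.3% of those from 50 bp upstream to 100 bp downstream (interval 34.3 to 40.3%, n = 985). The median GC content of these bands was 63.3% and 66.5%, and the median observed/expected CpG ratio 0.786 and 0.886. The bands are a description with no test.

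**Figure D3:**
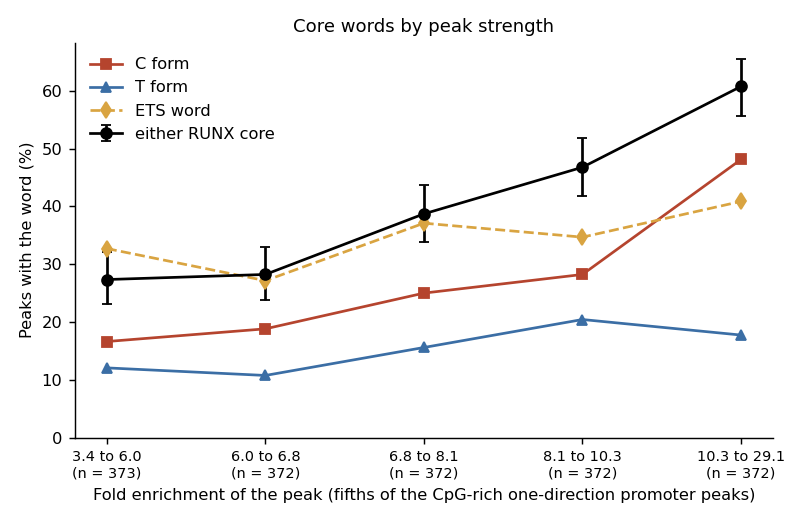
Share of members (%) with each word within 100 bp of the summit, in 5 groups of rising fold enrichment (fold range and n under each point); bars are 95% Wilson intervals on the share with either core. The share with a core was 27.3% in the weakest group and 60.8% in the strongest, and that of the C form was 16.6% and 48.1%.

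Promoter words beside the RUNX core were searched in the same way, on both strands. Their shares at summits and in flanks are a description with no test, because the rule set GC and CpG content at the summit and not 1 kb away. The level in all 9407 CpG-rich one-direction promoters, within 100 bp of the TSS, is given beside them. The GC box GGGCGG was present at 68.1% of member summits, against 5.10% upstream and 11.6% downstream, and in 70.6% of all promoters of the class. The ETS word CGGAAG was present at 34.5%, against 2.36% and 6.39%, and in 25.4% of all promoters of the class. The other words more frequent at summits than in flanks were rarer. CRE (TGACGT), the cyclic AMP response element, was at 10.3% of summits and in 9.18% of promoters, the E-box CACGTG at 7.74% and 7.81%, NRF1 (GCATGCGC) at 4.19% and 4.44%, and YY1 (AAGATGGC) at 3.98% and 4.24%. No word of the panel contains another, and the 2 AP-1 words are reverse complements.

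The other words of the panel had lower shares at summits than in both flanks. The IRF word AAANNGAAA was found at 2.26% of summits, against 11.5% upstream and 11.02% downstream, and in 2.08% of all promoters of the class. TATAAA was at 2.36% of summits and in 2.60% of promoters, C/EBP (TTGCNNAA) at 3.60% and 2.56%, and ZNF143 (ACTACAA) at 1.83% and 1.89%. The words AAGGAAG and GAGGAAG, typical of PU.1, the ETS factor that directs myeloid cells, were at 11.9% of summits and in 12.1% of promoters. The AP-1 words TGAGTCA and TGACTCA were at 1.61% and 1.39%, and CCAAT, the NFY word, at 22.3% and 24.6%. Among the members, with and without a core, the GC box differed, at 63.4% of members with a core and 71.3% of those without (Fisher's exact test, adjusted p = 0.00503 over 13 words), while the other 12 words had adjusted p from 0.377 to 1 and the ETS word was at 33.3% and 35.3%. GC content ranged from 55.1% to 84.4% among the members and was not adjusted for, so these tests do not separate the words from composition.

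**Figure D4:**
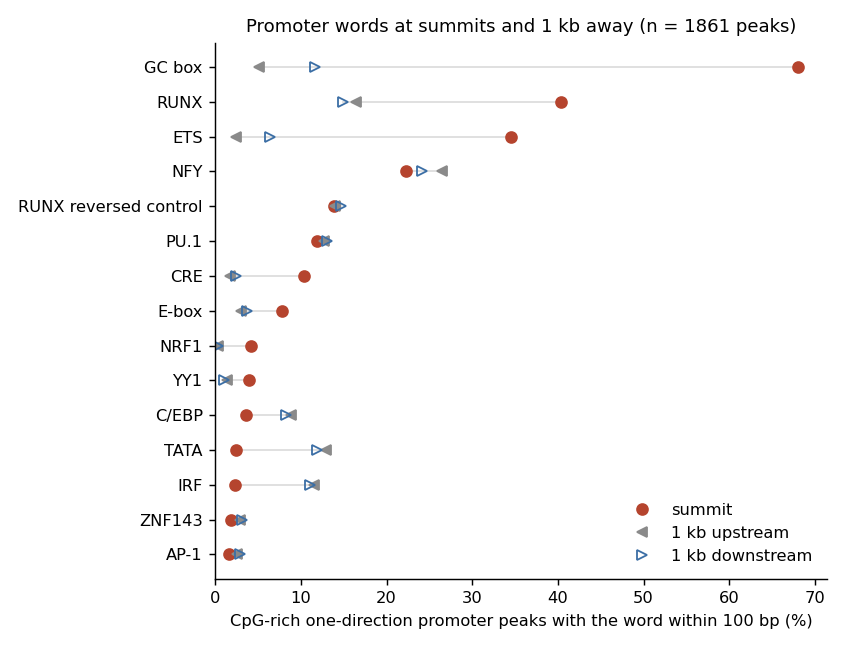
Share of the 1861 members (%) with each word within 100 bp of the summit (filled circles) and in windows of the same length 1 kb upstream (grey triangles) and 1 kb downstream (open triangles). The GC box, the ETS word and the RUNX core show the widest gaps, in windows whose composition the rule set at the summit only. The reversed RUNX control overlaps its flanks, but it pools words that moved in opposite directions.

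CpG-rich promoters with a peak were also set against those without. A gene counted as CpG-rich if any of its TSSs was CpG-rich and one-direction. It counted as CpG-poor only if none was and a TSS was CpG-poor and one-direction. Only peaks at TSSs of the gene's own class counted. A peak of any kind lay in the promoter window of 1914 of 9407 genes with a CpG-rich one-direction promoter (20.3%), against 370 of 10419 genes with a CpG-poor one (3.55%), a difference of 16.8 points (Fisher's exact test, p = 2.62e-320). It was 3.77 points with peaks of fold 10 or more (exact p = 5.66e-63). Within 250 bp of the TSS of the CpG-rich promoters, the C form was found in 30.1% of genes with a peak and 16.7% of those without (exact adjusted p = 5.53e-36 over 17 words), the T form in 22.2% and 13.0% (adjusted p = 3.28e-21) and the ETS word in 52.1% and 37.5% (adjusted p = 1.20e-29). CRE (17.2% and 13.4%, exact adjusted p = 1.66e-04) and YY1 (8.15% and 5.94%, adjusted p = 0.00220) also differed. The GC box did not pass the test, at 87.3% and 87.5% (difference −0.23 points, interval −1.96 to 1.38, exact adjusted p = 0.923), nor did the reversed words TGGCGT (20.4% and 18.5%, adjusted p = 0.140) and TGGTGT (14.8% and 13.6%, adjusted p = 0.306). NRF1, NFY, PU.1, E-box, AP-1, IRF, C/EBP, ZNF143 and TATA words had adjusted p from 0.0727 to 0.957. Within 100 bp of the TSS, all 9407 promoters of the class held the C form in 8.16%, the T form in 5.30%, the GC box in 70.6% and the ETS word in 25.4% of cases. The comparison of words in promoters with and without a peak was added after the summits had been examined.

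The members named 1787 genes, 1696 of which had a CpG-rich one-direction promoter at their own TSS. These 1696 are 18% of the 9407 genes of that class, the background for the gene lists below, which carry no test. The lists count genes by the start of their symbol or by name, so a list can hold genes that share only a prefix with its title. List counts with a core are over genes, while the 40.4% of members with a core set beside them is over peaks.

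Of the lists on protein turnover, RNA and translation, some lay above the background of 18% and others below it. The proteasome list had 6 of 35 genes with a member peak (17.1%), Psmg3 among them. The translation factor list had 8 of 50 (16%), with Eif2c3 and Eif4ebp1 counted by prefix. Ubiquitin conjugation and deubiquitination had 24 of 65 genes with a member peak (36.9%, interval 26.2 to 49.1%), led by Usp12 (fold 17.4), Ube2f (17.2), Usp36 (15.0) and Ube2e3 (10.3). Splicing factors had 13 of 42 (31.0%, interval 19.1 to 46.0%), with Srsf9 (14.3), Hnrnpa0 (12.0), Prpf3 (11.6) and Srsf3 (11.2). Cytoplasmic ribosomal proteins had 17 of 59 (28.8%, interval 18.8 to 41.4%), with Rps12 (11.9), Rpl19 (11.6), Rps2 (11.3) and Rpl13 (10.7), and mitochondrial ribosomal proteins 10 of 38 (26.3%), led by Mrps18a (14.6) and Mrpl45 (12.1).

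Autophagy and lysosome genes had 9 of 30 with a member peak (30.0%, interval 16.7 to 47.9%), and 8 of these 9 genes had a member peak with a core, where 40.4% of all members held one. They were led by the proton pump subunit Atp6v0a2 (fold 15.3) and by Atg5 (14.8) and Atg7 (14.2), which work in the conjugation step that builds the autophagosome. Heat shock and J protein genes had 11 of 43 (25.6%), with a core in 1 of the 11, that of Hspa4l (11.5). Dnajc10, with the highest fold of that list (14.7), held the ETS word and no core. The cell cycle list, which includes symbols that share only a prefix, had 19 of 76 (25%), led by Cdc34 (14.2), a ubiquitin-conjugating enzyme gene, and Cdk14 (13.3), followed by the cyclin gene Ccnl1 (11.9).

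Shares between 15.4% and 23.4% were found also for the respiratory chain and ATP synthase (9 of 48), Rab GTPases (10 of 50), chromatin modifiers (14 of 70), polymerase, general factor and Mediator genes (14 of 64), vesicle sorting (15 of 64), MAP kinases and phosphatases (8 of 47) and zinc finger genes named Zfp (28 of 182, 15.4%). Single peaks of these lists, and of the translation and proteasome lists, were strong. The translation factor gene Eif3g had 46 fragments and a fold of 20.7, the bromodomain gene Brd7 had 45 fragments and a fold of 19.8, and the Mediator gene Med7 had 39 fragments and a fold of 17.6. Psma6, a proteasome subunit gene, had a fold of 12.5 and Psmd7 one of 11.6. Rab8a, a GTPase of secretory traffic, had a fold of 11.6, Vps13b one of 10.8 and Map2k2, a kinase that activates ERK, one of 10.7.

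In the interferon and STAT list 11 of 22 genes had a member peak (50%, interval 30.7 to 69.3%), among them Irf1, Jak2, Ifnar1, Ifngr1, Socs1, Socs2 and Cish. Jak2, a kinase of cytokine receptors, and Socs2, an inhibitor of cytokine signalling, each had 23 fragments and a fold of 10.7, with a core at Socs2 and none at Jak2. Ifngr1, a chain of the interferon γ receptor, had a fold of 9.42 and no core. Over the list, 3 of the 11 genes had a member peak with a core, where 40.4% of all members held one.

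TGF-β signalling had 5 of 21 genes with a member peak (23.8%, interval 10.6 to 45.1%). Tgfbr1, the type I receptor, had 36 fragments and a fold of 16.3 at chr4:47365748-47366248, with no core within 100 bp of the summit. Smad4, the common SMAD that carries the signal into the nucleus, had 35 fragments, a fold of 15.2 and both core forms, the nearest 5.5 bp from the summit. The repressors Tgif1 (fold 10.7) and Skil (9.97) and the ubiquitin ligase gene Smurf2 were the others. Of these 5 genes, 4 had a member peak with a core, where 40.4% of all members held one.

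Smaller lists gave few members each. The list of ETS factors and GABP subunits had 5 of 12. Of these 5, Elk4 (fold 6.82), Etv6 (6.67) and Elf2 (5.77) encode ETS factors, while Gabpb1 (20.3) and Gabpb2 (4.20) encode GABP subunits that are not ETS proteins. Krüppel-like and Sp factor genes had 5 of 20, led by Klf13 (11.6) and Klf16 (10.3), and NF-κB and pattern recognition genes 5 of 22, led by the adaptor Traf2 (10.3) and the kinase gene Irak2 (8.12). Of the RUNX family and its partners, 2 of 9 had one, the corepressor gene Tle1 (9.85) and Runx2 (5.96). Antigen presentation had 2 of 7, Tapbp (10.3), which edits peptides on MHC class I, and Calr (7.45).

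Of 26 regulators and receptors of dendritic cells, 14 had a CpG-rich one-direction promoter and 2 a member peak, the cytokine receptor gene Flt3 (fold 7.05, with both core forms) and Id2 (5.09, with the T form). Among genes of other tissues, 0 of 15 neuronal genes and 0 of 1 muscle gene of this promoter class had a member peak, which for the neuronal list allows a share of up to 20.4% (Wilson 95% interval), and no liver gene of the list had such a promoter.

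**Figure D5:**
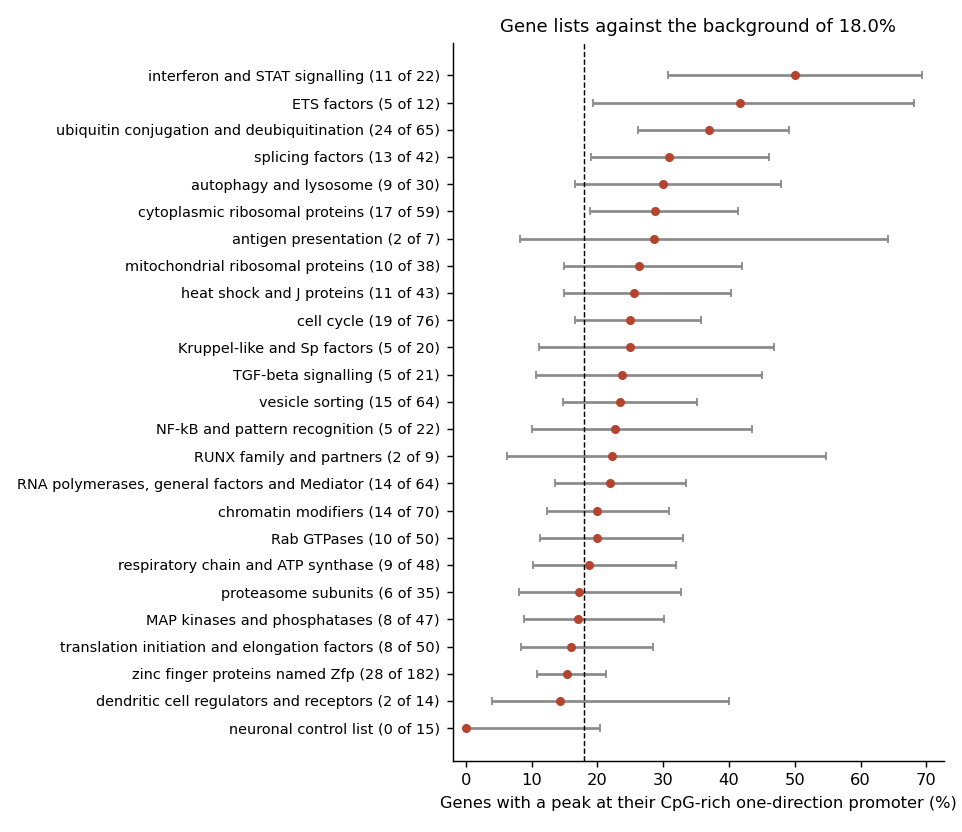
Share of the genes with a CpG-rich one-direction promoter (%) that had a member peak, for each list with at least 5 such genes (counts in parentheses); bars are 95% Wilson intervals and the dashed line is the 18% of all 9407 genes. The interferon and STAT list (50%) is the highest and the neuronal list (0 of 15) the lowest.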

How the data were processed

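The D1 libraries numbered 3 (Runx3 IP) and 2 (NIS IP). Per the study's methods and labels, CASAVA 1.8 made the base calls and Bowtie 1 kept unique alignments to mm9. The authors called 1 peak list with MACS2 2.0.10 on 1 Runx3 and 1 NIS alignment, keeping 1 tag per position (12078978 Runx3 tags before and 8689867 after, and 7110481 and 4946605 NIS tags) with a fragment length of 119 bp. The deposited pileup signal is Runx3 coverage scaled by the authors to the NIS depth. It was divided by 0.569, the value of 1 fragment, and every summit came within 0.01 of a whole fragment. The deposited fold is a ratio with 1 added above and below, and the NIS background was recovered from it. That value is the local background used by MACS2. Among members its lowest value was 0.314, its first quartile 0.315 and its median 0.345, so many members lay near the lowest value. The headers of the deposited −log10 columns of p and q could not be read, so these columns were told apart by position and values. Duplicate removal limits peak height, unique alignment leaves repeats out, and a high background lowers the fold.

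Positions are 1-based mm9. Sequence and TSSs came from NCBIM37 with GENCODE vM1. Words were searched on both strands in 201 bp centred on the summit or on points 1 kb away, and the profile counts word centres in 25 bp bins. Paired windows were compared by two-sided exact McNemar tests and classes by two-sided Fisher's exact tests, with Benjamini-Hochberg adjustment within a family, Wilson 95% intervals for shares and Newcombe intervals for differences. A gene list counts genes by symbol among those whose own TSS is CpG-rich and one-direction. Scripts were tested on simulated data. Python 3.11.15 was used with pysam 0.24.0, pandas 2.3.3, matplotlib 3.10.9, SciPy 1.17.1 and NumPy 2.4.6. Other thresholds, windows, TSS sets and limits were tried as alternatives.

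The members and the 27 gene lists were chosen with earlier results of these data known. Named were the 10 highest folds, the 5 widest, the 5 multi-peak genes with the highest fold, the 3 peaks on each side of each limit, the 5 with most cores, the 5 with the highest NIS background and up to 4 genes a list, and some of the genes so chosen are not reported here. Sequence from chromosome 18 was not printed. Peaks on the sex chromosomes were left out, as the rule asks.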

Additional observations from a re-analysis of the deposited data

How the results depend on the processing

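Of 300 values under other settings, covering 31 results, 271 kept their direction and their side of the 0.05 threshold. Counts of panel words have no such side and were kept if they stayed near the main count. The 31 results include comparisons by class, distance, panel word and single core form that the rule bears on and that stand above untested. The number kept is therefore no measure of support. The RUNX core kept its call against flanks and reversed words and by fold, with 21.1 to 42.9 points over upstream and 21.9 to 48.4 points over downstream windows. For the T form against upstream windows, the difference of 0.48 points became −0.39 with promoters limited to 500 bp upstream, −1.001 at a GC share of 0.60 and CpG of 0.75, −2.58 within 150 bp and 3.76 within 50 bp of the summit. Against downstream windows it became 2.04, −0.31 and 0.11 in the first 3 of these, and 1.87 with composition over 500 bp on either side. The share of the C form, on which the rule bears, was 3.10 points above that in CpG-poor promoter peaks in the main setting. It was higher by 5.77 points with −log10 q of at least 5, 18.8 with a fold of at least 10 and 4.17 without chromosome 5 beyond 110 Mb. With TSSs of every transcript it was 4.67 points and within 150 bp 4.27 points. The difference was only 0.57 points at the stricter GC and CpG limits, 1.47 with composition over 500 bp on either side and 1.71 within 50 bp. The core in members against bidirectional promoter peaks became −1.31 at the stricter GC and CpG limits, −1.57 with overlap of the peak interval and −0.64 within 50 bp. An NIS background over 0.5 against CpG-poor promoter peaks became −0.11 with that wider composition window, −3.58 at the stricter limits and −0.49 for a background over 1, and against peaks outside promoters −0.00892 with −log10 q of at least 5, −0.87 without the end of chromosome 5, −0.0701 with 500 bp upstream, −0.15 with the wider window and −1.94 at the stricter limits. A second peak against bidirectional promoter peaks became 5.20 with a fold of at least 10 and 0.47 with the wider window. A fold of 10 or more against CpG-poor promoter peaks reached −4.31 with TSSs of every transcript and −2.95 for a fold of 15. Words scarcer at summits with an adjusted p below 0.05 against both flanks (exact McNemar test) numbered 2 rather than 4 with a fold of at least 10. The rule bears on this count too. The causes were not tested. Settings for the split core forms and for bound against unbound promoters were chosen after seeing the data. No paired analysis was possible because the list was called on 1 alignment a side, for which reason no library could be left out. Depth limits the weak end: 9 fragments made the shallowest member.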

Other observations

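Gene lists of the study on Runx3 deletion in colonic cells were counted among the promoters. Of 54 genes of the class on the list lower in resident macrophages, 6 had a member peak (11.1%, interval 5.19 to 22.2%), among them Slc25a23 (fold 12.5), Ints6 (8.55), Ifih1, a sensor of viral RNA (7.25), and Usp18, which restrains interferon signalling (6.89). Of 24 that were higher there, 4 had one (16.7%), among them AA467197 (10.1). In CD11b+ dendritic cells, 7 of 61 lower genes (11.5%), led by Cks2 (9.55), Sema6b (8.51) and Ankrd12 (7.69), and 3 of 20 higher genes (15.0%), among them Hap1 (8.99) and Gca (5.35), had one. The background over all genes of the class was 18%, and no test was made.

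A TSS of a non-coding transcript on the other strand lay within 1 kb of the summit of 167 members (8.97%) and of 54 CpG-poor promoter peaks (6.78%), a difference of 2.19 points (interval −0.12 to 4.27, Fisher's exact test, p = 0.0656). The C form was followed by a further T in 138 of the 509 members that held it (27.1%). TGCGGTT was at 7.42% of members, 7.66% of CpG-poor promoter peaks, 7.80% of bidirectional promoter peaks and 4.62% of peaks outside promoters. TGCGGT was at 27.4%, 24.2%, 25.1% and 11.6% of these. In all 9407 CpG-rich one-direction promoters, within 100 bp of the TSS, the shares were 1.27% and 8.16%. No test was made.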
